A study of Mus musculus with 2 samples.

Results

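Cadherins and protocadherins are calcium-dependent adhesion molecules of the cell surface, and their genes were followed here in the hippocampus of mice fed astaxanthin (ASX). The set holds every gene whose symbol starts with Pcdh, or with Cdh followed by a digit, and which had a probe on both arrays named through its RefSeq accession. Of 93 mouse genes with such symbols in RefSeq, 59 had a probe, among 16533 genes with a symbol on the arrays, and 54 were measured, among 13319. A gene counted as measured when, on each array, a probe of it was well above background for ASX and control RNA alike, and its value is that of the brightest such probe. After loess normalization no member differed between the diets by 1.2-fold or more with the same sign on both arrays, and the log2(ASX / control) of all 54, averaged over the arrays, lay between -0.20 for Pcdhb19 and 0.25 for Cdh11.

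The ASX group was male C57BL/6J mice, 11 weeks old and 26 to 28 g, that ate powdered chow with 0.5% by weight of an algal (Haematococcus pluvialis) powder with a 2% content of the red carotenoid astaxanthin for 4 weeks, after 1 week of acclimatization. The control group was of the same strain, sex and age, was caged singly like the ASX group, and ate the chow with placebo powder and 0% of the ASX powder. Array 1 carried ASX RNA in Cy5 and control RNA in Cy3, and array 2 carried ASX RNA in Cy3 and control RNA in Cy5. Both arrays are titled with 4 mice, and no label says how RNA of single mice was combined or shared over the arrays. The arrays were therefore treated as a dye swap of 1 replicate of the diet comparison. The SD between arrays given below is read as technical, and whether it also holds differences between mice is not known. There is no replicate check of the diet and no p-value could be computed.

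In a classical cadherin, the extracellular repeats bind the same cadherin on the facing cell and the cytoplasmic tail binds catenins, which link it to actin. Type I and type II cadherins differ in how their outermost repeat docks, and in the hippocampus both kinds hold pre- and postsynaptic membranes together and sort axons into layers. Protocadherins lack the catenin-binding tail. The alpha, beta and gamma protocadherins are encoded in neighbouring clusters, and single neurons switch on different sets of them by promoter choice, which lets a neuron tell its own branches from those of others. The delta protocadherins are encoded at scattered loci, signal to the actin cytoskeleton and pattern axons and synapses.

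The 250 bases before the start of 3 of these genes are shown because the genes carry the contrasts described below. Pcdh8 is induced by synaptic activity. Cdh8 and Cdh22 are type II cadherins of the brain that lay on opposite sides of 0 after loess. With each array centred on its median, they had -0.13 and -0.30, where the median of all genes was -0.16. Relative to the median of all genes, Cdh8 was above and Cdh22 below under all 10 ways of processing both arrays. All 3 were chosen after their values were seen. Each runs 5' to 3' on the gene's strand, from RefSeq on GRCm38.p6, at chr14:79771313-79771562 (minus) for Pcdh8, chr8:99416472-99416721 (minus) for Cdh8 and chr2:165234738-165234987 (minus) for Cdh22. Capitals mark TATAAA in Pcdh8 and GGGCGG in Cdh8 and Cdh22.
Pcdh8: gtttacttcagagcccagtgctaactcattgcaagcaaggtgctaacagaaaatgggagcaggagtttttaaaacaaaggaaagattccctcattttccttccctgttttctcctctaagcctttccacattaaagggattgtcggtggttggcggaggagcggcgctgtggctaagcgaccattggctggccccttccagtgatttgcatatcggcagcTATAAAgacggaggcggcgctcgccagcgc
Cdh8: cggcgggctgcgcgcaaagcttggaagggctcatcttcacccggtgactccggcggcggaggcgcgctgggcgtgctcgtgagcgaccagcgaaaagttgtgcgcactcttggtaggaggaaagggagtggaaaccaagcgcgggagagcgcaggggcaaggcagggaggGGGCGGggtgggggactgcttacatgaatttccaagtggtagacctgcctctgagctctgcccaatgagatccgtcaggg
Cdh22: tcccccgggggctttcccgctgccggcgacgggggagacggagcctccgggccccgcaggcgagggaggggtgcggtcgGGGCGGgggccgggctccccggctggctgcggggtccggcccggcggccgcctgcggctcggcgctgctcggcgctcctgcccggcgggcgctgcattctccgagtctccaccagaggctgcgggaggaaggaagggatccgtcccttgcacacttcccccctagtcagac
The letters TATAAA lie 30 bases before the start of Pcdh8. GGGCGG, the core of the site read by Sp1, lies 80 bases before the start of Cdh8 and 171 before that of Cdh22. The GC content was 51.2% for Pcdh8, 64.4% for Cdh8 and 77.6% for Cdh22, and the windows held 11, 20 and 30 CG dinucleotides, against medians of 52.4% and 6 over 32851 RefSeq windows of the same length.

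Of the measured members, 15 had a window of this kind outside mouse chromosome 18. TATAAA, searched on both strands, was in 2 of the 15 (Pcdh8 and Pcdh15) and in 12.4% of all windows. GGGCGG was in 7 of the 15 and in 32.7% of all windows. CANNTG, the E-box, was in 8 of the 15 and in 66.2% of all windows, and TGACGTCA, the full cyclic AMP response element, was in 0 of the 15 and in 1.55% of all windows. A match is only a run of letters, and its absence says only that the letters are not in the window. Of the 7 members with GGGCGG, Cdh8 (mean log2 ratio 0.06) and Pcdh17 (0.06) had means above 0 after loess. Means below 0 were those of Cdh22 (-0.14), Pcdh10 (-0.09), Cdh6 (-0.08), Cdh15 (-0.07) and Pcdh18 (-0.03). Members with TATAAA or CANNTG but without GGGCGG also lay mostly below 0. They were Cdh7 (-0.07), Cdh20 (-0.06), Pcdh15 (-0.05), Pcdh8 (-0.05) and Cdh12 (-0.04), with Cdh23 (0.10) above 0. A link between these letters and the ratios was not tested.

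None of the 54 measured members was at least 1.5-fold higher in ASX on each array, where 0.0300% of all genes with a symbol were, and none was at least 1.5-fold lower, where 0.0300% were. At 1.2-fold the members' counts were also 0 higher and 0 lower, against 0.233% higher and 0.330% lower among all genes. With median centring of each array in place of loess, 2 members were 1.2-fold lower on each array: Cdh13, with -0.28 and -0.41, and Cdh22, with -0.31 and -0.30, in a setting where the median of all genes was -0.16 and 3.60% of them passed this rule, so that 2 of 54 is near that background. With background shares this small the loess counts of 0 among 54 genes are near the background. Averaged over the arrays, all 54 members (98.6% of all genes) stayed within 1.2-fold, although 51 did with the scanner's own log ratios (95.0% of all genes) and 50 with each array centred on its median (86.0% of all genes). With the scanner's ratios the 3 members past 1.2-fold in the mean were Pcdhb8 at -0.39, Cdh3 at -0.38 and Pcdh7 at 0.28. All 3 were dim, with log2 signals between 6.38 and 7.10. Cdh24, which was not well above background in every signal, had 6.21 to 6.50.

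By side alone, 14 members (25.9%) were above 0 on both arrays, where 14.3% of all genes were, and 13 (24.1%) were below 0 on both, where 26.4% were. The remaining 27 (50%) had opposite signs on the arrays, against 59.3% of all genes. Median centring moved the members' counts to 7 above and 24 below, where 8.92% of all genes were above and 61.4% below, so the side of a member near 0 rests on the scaling. Of the 54, 32 kept their side of 0 under all settings that used both arrays, and 21 changed it with median centring. The matching shares over all genes were not counted, so whether 32 or 21 of 54 is unusual cannot be told. Median centring also moved the median of all genes, to -0.16. Relative to all genes, whose median was -0.019, the members' median of -0.015 was higher by 0.004, and with median centring it was higher by 0.11. Every median-centred value given below stands against a median of all genes of -0.16. A value below 0 in that setting is therefore not by itself lower than in most genes.

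The arrays differed about as much as the members did. On array 1 the members' median was 0.02 and on array 2 it was -0.03, against -0.03 and -0.02 over all genes. The SD between arrays had a median of 0.085 over members and 0.11 over all genes, and the size of the mean log2 ratio had a median of 0.073 over members and 0.056 over all genes. Across the 54 members the ratios of the arrays correlated at -0.24 (Pearson) and -0.10 (Spearman). The families differed: the Pearson value was 0.25 over 16 cadherins, -0.02 over 9 non-clustered protocadherins and -0.42 over 29 clustered protocadherins. Over all genes the correlations were -0.25 and -0.27, and the points share the same pair of RNA groups and the same exchange of dyes. At least 1.2-fold on array 1 or 2 was reached by 8 members (14.8%), where 13.9% of all genes reached it.

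**Figure D1:**
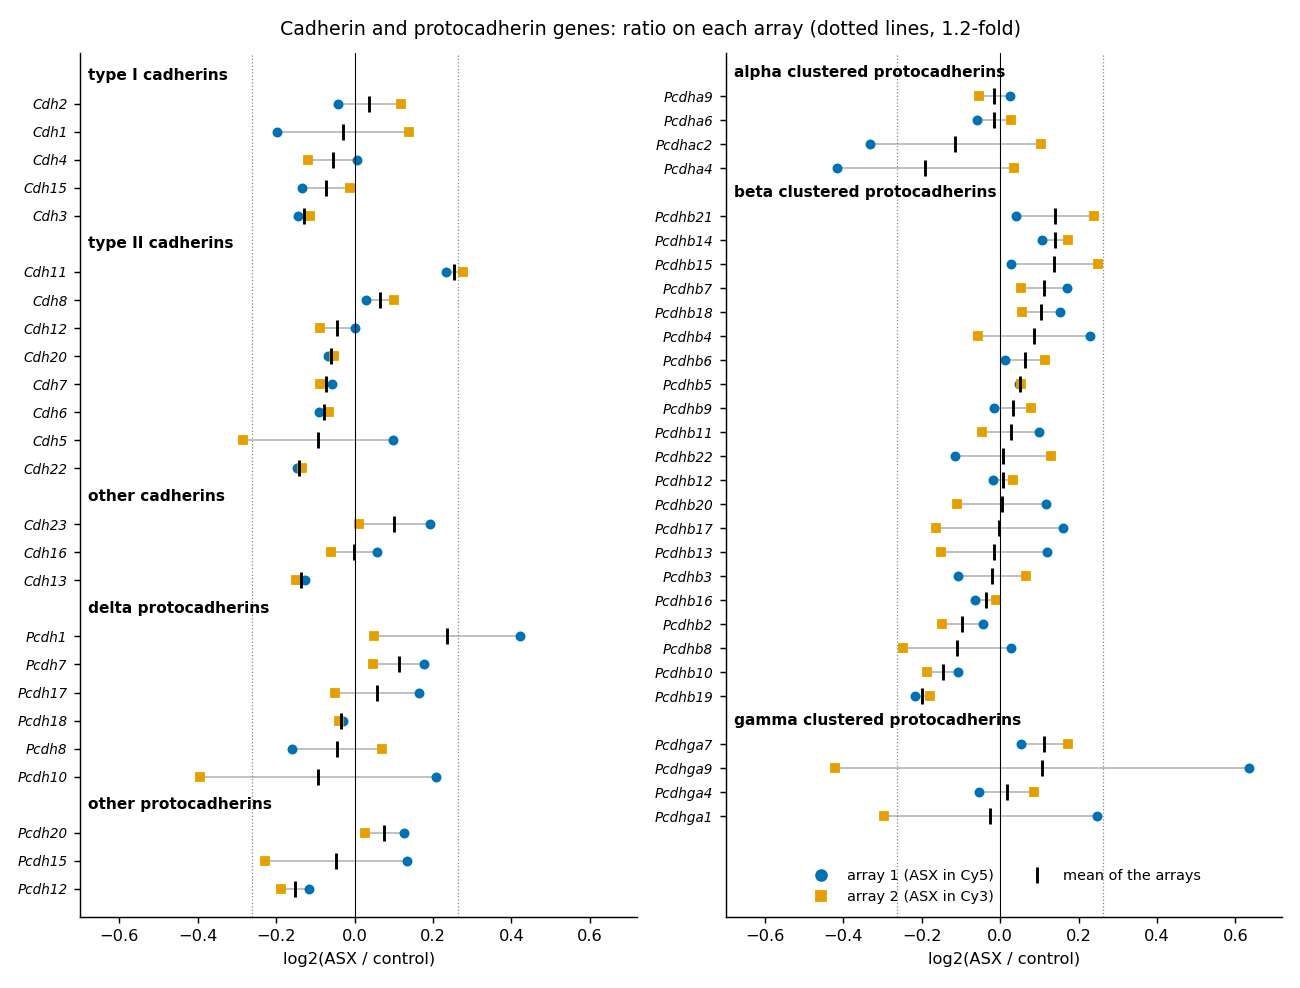
Log2(ASX / control) of each of the 54 measured members on array 1 (circles) and array 2 (squares), grouped by class and ordered by the mean (bars), with dotted lines at 1.2-fold. No member has both symbols beyond the same dotted line, and Cdh11, Pcdh1 and Pcdhb19 have the means farthest from 0 with both symbols on one side.

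The type I cadherins, the classical junction cadherins, had a median of -0.06 over their 5 measured members, with -0.13 on array 1 and -0.01 on array 2. Cdh2 (N-cadherin), the main cadherin of excitatory synapses and of neural progenitor junctions, had a log2 signal of 10.91 and 11.06 for ASX RNA on arrays 1 and 2, against 10.95 and 10.94 for control RNA. Its ratios of -0.04 and 0.12 had opposite signs, and the mean was 0.04 (SD between arrays 0.11). With median centring the mean was -0.14, where the median of all genes was -0.16. Cdh2 lay above the median of all genes in all 10 settings with both arrays. It has 1 probe, so the brightness filters and the mean over probes could not change its ratio. The difference between the diets was smaller than the spread between the arrays.

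Cdh1 (E-cadherin), the epithelial junction cadherin, was printed on 10 spots of each array, which gives its spread within each array. Its ratio was -0.20 on array 1 (SD over spots 0.075, range -0.34 to -0.12) and 0.14 on array 2 (SD over spots 0.085, range -0.06 to 0.23). The spread within an array was thus smaller than the gap between the arrays, which had opposite signs. The mean was -0.03 (SD between arrays 0.24), and it was 0.11 with median centring. Its log2 signals were low, between 6.45 and 6.65.

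The other 3 type I genes had means below 0. Cdh3 (P-cadherin), named for placenta, had ratios of -0.14 and -0.11 (mean -0.13, SD 0.021), with a mean of -0.38 from the scanner's own log ratios and 0.01 with median centring. Cdh15 (M-cadherin), known from muscle, had -0.13 and -0.01 (mean -0.07, SD 0.086), and -0.19 with median centring. Cdh4 (R-cadherin), first described in retina, had 0.01 and -0.12 (mean -0.06, SD 0.088), so its arrays straddled 0, and its mean was -0.20 with the scanner's ratios and -0.01 with median centring.

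The type II cadherins, a branch with many members in restricted sets of neurons, had a median of -0.07 over 8 measured genes, with -0.03 on array 1 and -0.08 on array 2. Of the 8, Cdh11 and Cdh8 were above 0 on both arrays, Cdh6, Cdh7, Cdh20 and Cdh22 were below 0 on both, and Cdh5 and Cdh12 had opposite signs. The 4 genes below 0 agreed closely between the arrays, and the median SD between arrays over the class was 0.026. With median centring, the class median was -0.13.

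Cdh11 (OB-cadherin), a cadherin of osteoblasts and mesenchymal cells that is also made in neurons, had the highest mean of any member. Its log2 signal was 11.24 and 11.34 for ASX RNA on arrays 1 and 2, against 11.01 and 11.07 for control RNA. Both ASX signals were above both control signals, and the ratios were 0.23 and 0.28 (mean 0.25, SD 0.032, fold 1.19), so array 1 stood just short of 1.2-fold and array 2 just past it. Of all genes with a symbol, 99.4% had a lower mean.

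Neither of the other measured probes of Cdh11 showed the same on both arrays. The next brightest had ratios of -0.08 and 0.22 (mean 0.07), and the dimmest had 0.16 and -0.12 (mean 0.02). The ratio of Cdh11 thus depends on which probe is read, and with median centring the brightest probe's mean was 0.07. Markers of meningeal fibroblasts, cells that also make Cdh11, lay above 0 in the same RNA. All 12 of the list were measured and none was at 0, 9 were above 0 on both arrays and none below on both, and their median was 0.18 (0.20 and 0.17 on arrays 1 and 2), or 0.05 with median centring. Their summed linear signal was 34684 and 35195 for ASX RNA, against 34337 and 31650 for control RNA, and their part in the Cdh11 ratio was not tested. In a bulk tissue RNA of this kind, a different number of cells of a type and a different amount of RNA per cell cannot be told apart.

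Cdh22 (PB-cadherin), named for pituitary and brain, had log2 signals of 10.41 and 10.39 for ASX RNA, against 10.56 and 10.53 for control RNA. Both ASX signals were below both control signals, and the ratios of -0.15 and -0.14 differed by less than for most members (mean -0.14, SD 0.0092, fold 0.907). The mean was lower with median centring, at -0.30, and 7.17% of all genes had a lower mean than Cdh22 in the loess values. Cdh20 had ratios of -0.07 and -0.05 at its brightest probe (mean -0.06) and of -0.11 and -0.01 at its other probe (mean -0.06), so its probes gave the same mean, and the brightest had -0.26 with median centring.

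Cdh8, which marks and wires particular sensory and cortical circuits, had ratios of 0.03 and 0.10 (mean 0.06, SD 0.050), and -0.13 with median centring. Cdh6 (K-cadherin), known from kidney and early neural tissue, had -0.09 and -0.07 (mean -0.08), with -0.17 from the scanner's ratios and 0.00 with median centring. Cdh7 had -0.06 and -0.09 (mean -0.07). Cdh12 had 0.00 and -0.09 (mean -0.04, SD 0.063). All 4 stayed within 1.2-fold on each array.

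Endothelial cadherins stood on either side of 0 or below it. Cdh5 (VE-cadherin), which seals the junctions between endothelial cells, had ratios of 0.10 and -0.28 at its brightest probe (mean -0.09, SD 0.27), and of 0.00 and 0.08 at its other probe (mean 0.04). Pcdh12, an endothelial protocadherin known as VE-cadherin-2, had -0.12 and -0.19 (mean -0.15, SD 0.051), below 0 on both arrays, with a mean of -0.26 from the scanner's ratios and -0.09 with median centring. All 8 endothelial markers were measured, none at 0, with 1 above and 2 below 0 on both arrays and a median of -0.04, or -0.18 with median centring. Their summed signal was 19610 and 22039 for ASX RNA, against 23364 and 20708 for control RNA, and their part in these ratios was not tested.

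The cadherins outside both types had no common direction. Cdh13 (T-cadherin), which has no cytoplasmic tail, is held by a lipid anchor and binds adiponectin, had log2 signals of 12.56 and 12.46 for ASX RNA, against 12.69 and 12.61 for control RNA. Both ASX signals were below both control signals, with ratios of -0.13 and -0.15 (mean -0.14, SD 0.016), and a mean of -0.35 with median centring. Cdh23, which forms the tip links of hair cells together with Pcdh15, had 0.19 and 0.01 (mean 0.10, SD 0.13). Its partner Pcdh15 had 0.13 and -0.23 (mean -0.05, SD 0.26), and a mean of 0.04 with median centring. Cdh16, a kidney cadherin, had 0.06 and -0.06 (mean 0.00).

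**Figure D2:**
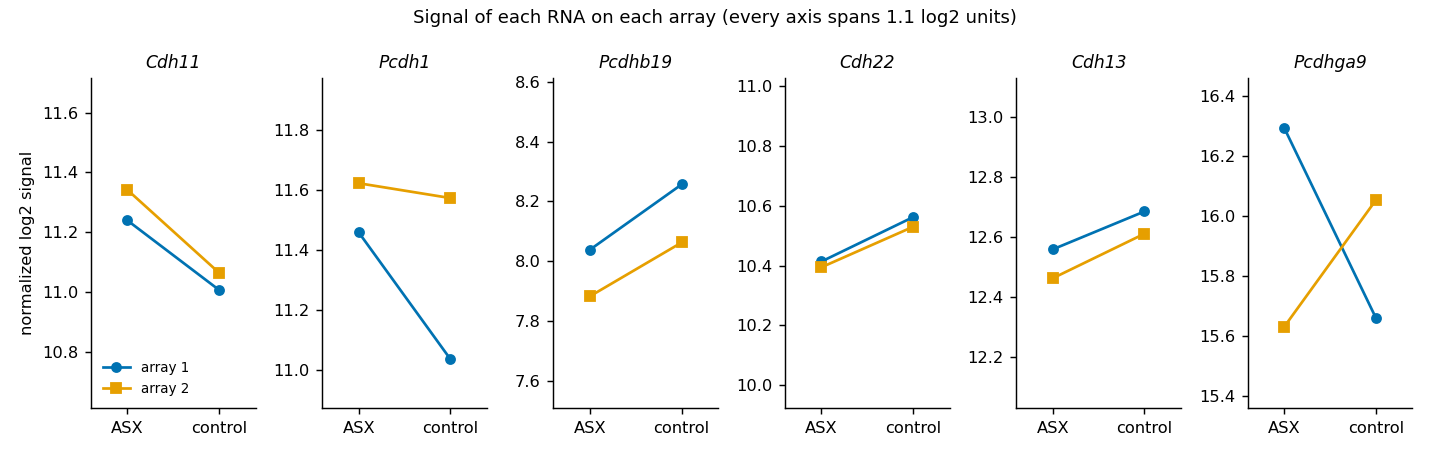
Normalized log2 signal of ASX RNA (left) and control RNA (right) on array 1 (circles) and array 2 (squares) for 6 members, each axis spanning the same number of log2 units and no level comparable between genes. The lines of Cdh11 and Pcdh1 run down from ASX to control on both arrays, those of Pcdhb19, Cdh22 and Cdh13 run up, and those of Pcdhga9 cross.

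The delta protocadherins had a median of 0.01 over 6 measured genes, with 0.17 on array 1, 0.00 on array 2 and -0.09 with median centring. Pcdh1, a delta protocadherin also found in airway epithelium and skin, had log2 signals of 11.46 and 11.62 for ASX RNA, against 11.04 and 11.57 for control RNA. Its ratio was 0.42 on array 1 and 0.05 on array 2 (mean 0.24, SD 0.26), so nearly all of its mean came from array 1. The SD between arrays exceeded the mean, which was 0.04 with median centring.

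Pcdh10 (OL-protocadherin), which guides axons of the basal forebrain and takes part in synapse removal, had 0.21 and -0.39 (mean -0.09, SD 0.43, and -0.27 with median centring), the widest gap outside the clustered genes. Pcdh17, which controls presynaptic assembly in corticobasal circuits, had 0.17 and -0.05 (mean 0.06, SD 0.15), and -0.17 with median centring. Pcdh7 had 0.18 and 0.05 (mean 0.11, SD 0.092) and a mean of 0.21 with median centring and 0.28 with the scanner's ratios. Of these 3 genes, Pcdh7 alone was above 0 on both arrays.

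Pcdh8 (arcadlin), a protocadherin that synaptic activity induces in hippocampal neurons and that draws N-cadherin into the cell, had log2 signals of 12.73 and 12.93 for ASX RNA, against 12.89 and 12.86 for control RNA. The groups overlapped, with ratios of -0.16 and 0.07 (mean -0.05, SD 0.16), and a mean of -0.26 with median centring. The 8 activity-induced genes (immediate early genes such as Fos and Arc) were all measured and all below 0 on both arrays, with a median of -0.28, or -0.42 with median centring. Their summed signal was 46826 and 46875 for ASX RNA, against 52437 and 55766 for control RNA, and Pcdh8 did not show the same sign on both arrays. A test of whether Pcdh8 differs from those genes was not possible with 1 replicate.

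Pcdh18, which binds the Reelin adaptor Dab1, had ratios of -0.03 and -0.04 (mean -0.03, SD 0.0071) and lay close to 0 on both arrays. Pcdh20 had 0.12 and 0.03 (mean 0.08, SD 0.069), and -0.14 with median centring, where all genes had a median of -0.16. No delta or other non-clustered protocadherin passed 1.2-fold on both arrays.

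**Figure D3:**
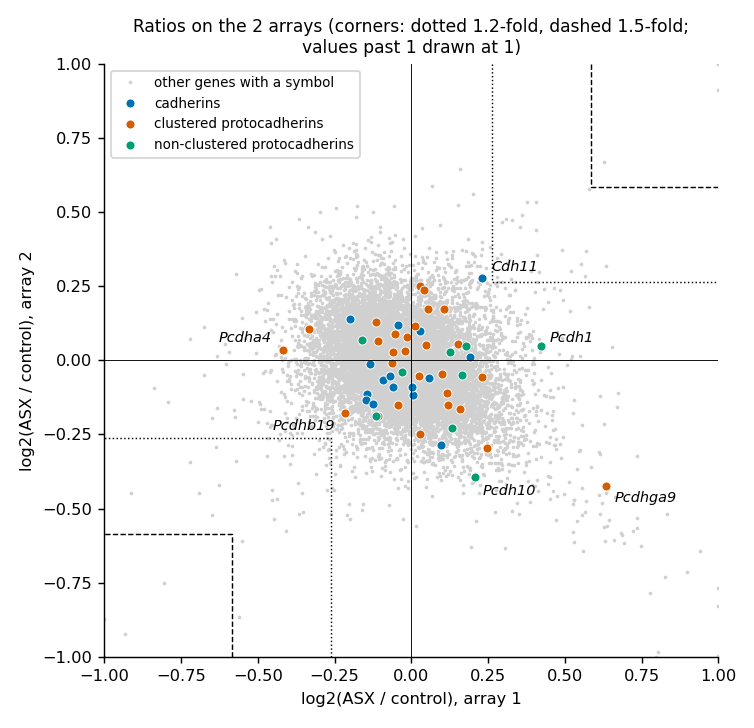
Log2(ASX / control) on array 1 (x axis) against array 2 (y axis) for the 54 members, coloured by family, and for the other genes with a symbol (grey), with corner lines at 1.2-fold (dotted) and 1.5-fold (dashed). No member lies in a corner, Cdh11 lies next to the upper right dotted corner, and Pcdhga9 lies at the lower right, at 0.63 and -0.42.

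The clustered protocadherins made up 29 of the 54 measured members, and their median was 0.01, with 8 above 0 and 4 below 0 on both arrays and 17 with opposite signs. Coverage differed between the clusters: 21 of 22 beta genes were measured, against 4 of 14 alpha genes and 4 of 22 gamma genes, because 27 alpha and gamma genes had no probe named by accession. Alpha genes, and likewise gamma genes, share the exons that encode their constant tails. A probe in a shared exon would read a whole cluster, and the positions of the probes were not checked.

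The alpha genes had a median of -0.06 (-0.20 on array 1, 0.03 on array 2), and all 4 had opposite signs on the arrays. Pcdha4 had ratios of -0.42 and 0.04 (mean -0.19, SD 0.32), so its low mean came from array 1 alone. Pcdhac2, a C-type gene of the cluster's end known from serotonergic neurons, had -0.33 and 0.10 at its brightest probe (mean -0.11, SD 0.31, and -0.33 with median centring). Its next probe had 0.17 and -0.04 (mean 0.06), and its dimmest had -0.27 and 0.03 (mean -0.12). Pcdha6 and Pcdha9 had means of -0.02 and -0.01. No alpha gene differed between the diets by more than the arrays differed from each other.

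The beta genes are single exons without a shared tail, so each probe reads its own gene as far as its sequence differs from the related copies, which was not checked. Their median was 0.01 (0.03 on array 1, 0.03 on array 2), and it was -0.05 with median centring. Of the 21, 7 were above 0 on both arrays, 4 were below on both and 10 had opposite signs, and their means ran from -0.20 to 0.14.

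The highest beta means were those of Pcdhb21, Pcdhb14 and Pcdhb15. Pcdhb21 had 0.04 and 0.24 (mean 0.14, SD 0.14), and -0.05 with median centring. Pcdhb14 had 0.11 and 0.17 (mean 0.14, SD 0.047), and 0.00 with median centring. Pcdhb15 had 0.03 and 0.25 (mean 0.14, SD 0.16), and its other probe had 0.04 and 0.30 (mean 0.17), so its probes gave the same pattern over the arrays.

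The lowest beta means were those of Pcdhb19, Pcdhb10 and Pcdhb8. Pcdhb19 had log2 signals of 8.04 and 7.88 for ASX RNA, against 8.26 and 8.06 for control RNA, with ratios of -0.22 and -0.18 (mean -0.20, SD 0.027, fold 0.871). Both ASX signals were below both control signals. Its other probe was dim, with log2 signals between 6.82 and 6.96, and had 0.03 and 0.03 (mean 0.03). The low value was thus seen at 1 of its 2 probes, the brighter one. Pcdhb10 had -0.11 and -0.19 (mean -0.15, SD 0.056). Pcdhb8 had 0.03 and -0.25 (mean -0.11, SD 0.20), with a mean of -0.39 from the scanner's own log ratios and 0.01 with median centring.

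Order along the beta cluster did not group the ratios. The 20 pairs of measured neighbours differed in mean log2 ratio by a median of 0.12, and all 210 pairs of measured beta genes by a median of 0.098. The high Pcdhb21 and the low Pcdhb19 are separated by a single gene, with a mean of 0.00.

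**Figure D4:**
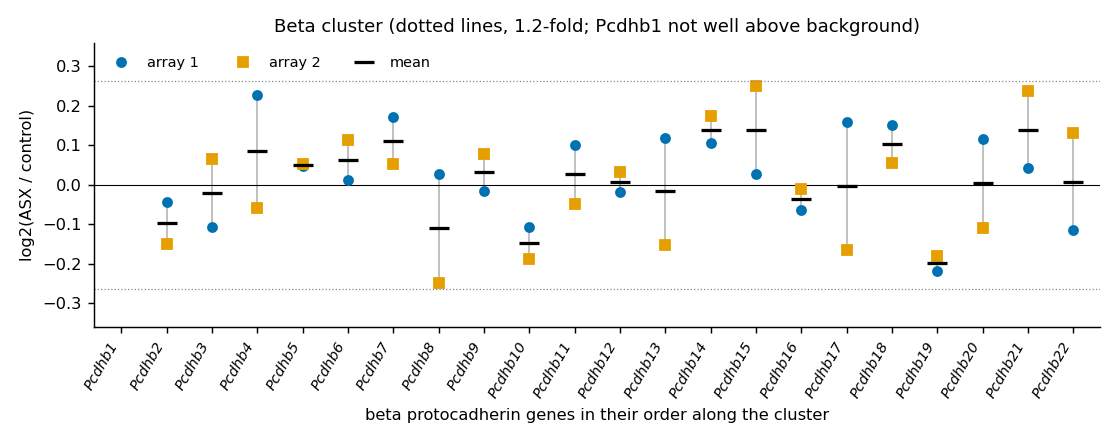
Log2(ASX / control) of the beta protocadherins in their order along the cluster, on array 1 (circles) and array 2 (squares) with the mean (bars) and dotted lines at 1.2-fold. The genes next to each other include both high and low means, all 21 measured genes lie within 1.2-fold on each array, and Pcdhb1 was not well above background.

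The gamma genes had a median of 0.06, with 0.15 on array 1 and -0.10 on array 2, and 0.00 when each gene's probes were averaged. Pcdhga9 had log2 signals of 16.29 and 15.63 for ASX RNA, against 15.66 and 16.05 for control RNA, which crossed between the arrays. Its ratios of 0.63 and -0.42 (mean 0.11, SD 0.75) were the widest of any member and followed the dye: it alone was at least 1.2-fold higher in Cy5 on each array, as 1.44% of all genes were with either dye. The next probe of Pcdhga9 did the same, with 0.51 and -0.35, and the remaining probes had -0.01 and -0.21, and -0.17 and 0.14. Pcdhga1 had 0.25 and -0.30 (mean -0.02, SD 0.38), Pcdhga4 had -0.05 and 0.09 (mean 0.02, SD 0.099), and Pcdhga7 had 0.05 and 0.17 (mean 0.11, SD 0.084). Pcdhga7 alone of the 4 was above 0 on both arrays. It was dim, with log2 signals of 6.94 and 7.07 for ASX RNA, against 6.89 and 6.90 for control RNA. With median centring its mean rose to 0.20, and that of the dim Pcdhga1 rose from -0.02 to 0.10.

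Where several probes of a member were measured, they did not always lie on the same side. Of 11 such members, 5 had all probes on one side of 0 in the mean, and in 6 the brightest and the next probe were on one side. Among all 4549 genes with several measured probes the latter share was 64.5%. The median gap between the brightest and the next probe was 0.041 for members and 0.054 for all genes, which is as large as many of the members' means.

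With a probe on the arrays, 5 members were not measured. Cdh17, the liver and intestine cadherin, and Pcdhb1 were well above background for neither RNA on either array. Cdh24 missed the filter for control RNA on array 1, Cdh26 for ASX RNA on array 2, and Pcdhgb4 for control RNA on array 2, where its signals gave ratios of 0.19 and 0.20. The 34 genes with no probe named by accession were Cdh9, Cdh10, Cdh18, Cdh19, Pcdh9, Pcdh11x, Pcdh19, 10 alpha and 17 gamma genes, and they are not analysed here.

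Genes for partners of the cadherins were read from the same arrays. Of 12 measured catenins and catenin partners, 2 were above and 3 below 0 on both arrays, with a median of 0.00. With median centring it was -0.20, where all genes had a median of -0.16. Ctnnd2 (delta-catenin), which binds the membrane-near tail of N-cadherin in neurons, had 0.10 and 0.08 (mean 0.09), and Ctnnd1 (p120-catenin) had 0.09 and 0.02 (mean 0.05). Arvcf, a p120 relative, had -0.34 and 0.05 (mean -0.14), and Ctnnbip1, an inhibitor of beta-catenin, had -0.06 and -0.09 (mean -0.07). No gene of the list passed 1.5-fold on both arrays.

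Of 10 measured genes for cadherin shedding, none was above and 4 were below 0 on both arrays, with a median of -0.07, or -0.11 both with median centring and with the scanner's ratios. Adam10, which cuts N-cadherin and the gamma protocadherins at the membrane, had 0.20 and -0.06 (mean 0.07), and Aph1a of the gamma-secretase had -0.05 and 0.14 (mean 0.05). The metalloproteinases Mmp14, with -0.12 and -0.19 (mean -0.16), and Mmp9, with -0.06 and -0.13 (mean -0.10), were the lowest. No gene of the list passed 1.5-fold.

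Of 12 measured regulators of protocadherin promoters, which include cohesin and the silencers of the clusters, 2 were above and 2 below 0 on both arrays, with a median of 0.00. Smchd1, a silencer of clustered protocadherins, had -0.03 and 0.21 (mean 0.09), and Wiz had 0.06 and 0.05 (mean 0.05). Setdb1, a histone methyltransferase that acts at the clusters, had -0.17 and 0.00 (mean -0.09), and Wapl, which unloads cohesin, had -0.14 and 0.02 (mean -0.06). With median centring the median of the regulators was -0.19, against -0.16 over all genes, and no gene of the list passed 1.5-fold on both arrays.

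Of 15 measured effectors, through which protocadherins reach actin and kinases, 2 were above and 2 below 0 on both arrays, with a median of 0.02. With median centring it was -0.20, where all genes had a median of -0.16. Ptk2b (Pyk2), a kinase that clustered protocadherins inhibit, had 0.20 and -0.03 (mean 0.08), and Wasf1 (WAVE1) had 0.06 and 0.11 (mean 0.08). Ptk2 (FAK) had 0.08 and -0.21 (mean -0.07). Prkcd, a protein kinase C, had -0.39 and -0.25 (mean -0.32), which passed 1.2-fold on array 1 and fell just short of it on array 2. It also stands in the list of thalamic markers, of which 5 of 8 were below 0 on both arrays.

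Among 10 measured genes of the wider cadherin superfamily, 3 were above and 2 below 0 on both arrays, with a median of 0.01, or -0.11 with median centring. Clstn2 (calsyntenin-2), a postsynaptic cadherin relative, had 0.24 and 0.18 (mean 0.21), and Fat4, a giant planar-polarity cadherin, had 0.11 and 0.25 (mean 0.18). Dsg2, a desmosomal cadherin, had -0.19 and -0.27 (mean -0.23), and Cdhr5 had -0.05 and -0.16 (mean -0.11). None passed 1.5-fold on both arrays.

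All 6 hippocampal neuron markers that had a probe were measured, with a median ratio of 0.04. With median centring it was -0.18, where all genes had a median of -0.16. Markers of other regions were measured too, such as all 9 striatal ones, so their detection does not test which tissue was taken. Several markers of neighbouring regions and cells lay below 0 on both arrays. Of the striatal markers 8 of 9 were below 0 on both arrays (median -0.24), with a summed signal of 23921 and 22434 for ASX RNA, against 29141 and 29971 for control RNA. Thalamic and habenular markers had a median of -0.15, choroid plexus markers of -0.07 (2 above and 5 below of 7), ependymal markers of -0.23 (4 of 4 below) and oligodendrocyte markers of -0.07 (1 of 6 below, where the arrays gave 0.07 and -0.21). With median centring these medians were -0.36 (striatum), -0.28 (thalamus and habenula), -0.27 (choroid plexus), -0.34 (ependyma) and -0.30 (oligodendrocytes). Every marker counted here was well above background in all 4 signals, and the part of these cells in the members' ratios was not tested. Between 75.8% and 78.2% of the 43379 spots for mouse transcripts were well above background in each RNA on each array.

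**Figure D5:**
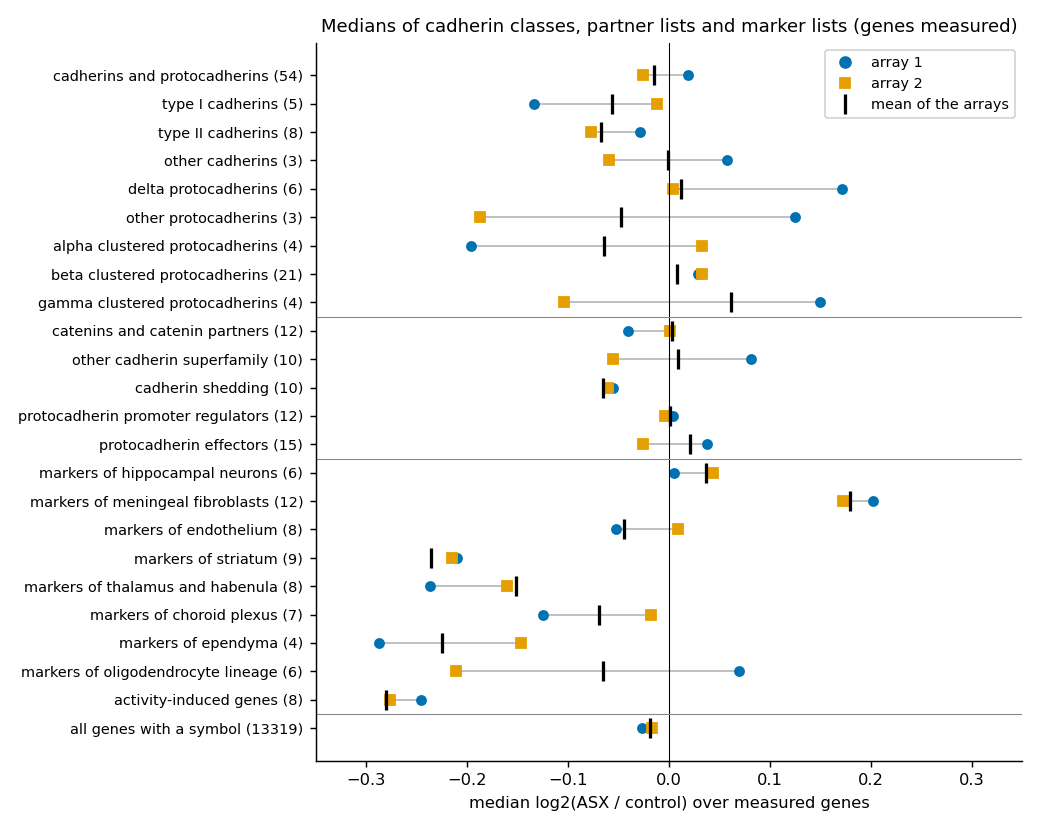
Median log2(ASX / control) over the measured genes (number in parentheses) of each cadherin class, partner list and marker list, on array 1 (circles), array 2 (squares) and in the mean of the arrays (bars), with all genes with a symbol in the last row. The medians of the cadherin classes lie between -0.07 and 0.06 in the mean, and with median centring all genes shift to -0.16.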

How the data were processed

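Hippocampal RNA of ASX and control mice was compared on 2 two-colour arrays with exchanged dyes. The scanner software was Agilent Feature Extraction 11.0.1.1, per the submitters' processing notes. For intensity, the deposited value is the median pixel signal of each spot and channel, beside a median local background, with no normalization. The deposited log10 ratio is processed Cy5 over Cy3, and the deposited value table holds the same log10 values, not turned for the dye swap (largest difference 5e-08, medians 0.00503 and 0.00826). The deposited flags, coded as 0 or 1, mark signal well above background, saturation and outlier spots.

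R 4.3.3 with limma 3.58.1 was used for normexp background correction (offset 50), followed by loess within each array with control spots at weight 0, and Aquantile for the signals of single channels. Of 45018 features, 1639 controls were left out, as were 3 non-uniform outlier spots of the 43379 others, and 0 were saturated. Every ratio was expressed as log2(ASX / control), and averaging the spots of each probe gave 41171 probes. Accessions were named without their version through a RefSeq table of GRCm38.p6: 23372 probes had 1 symbol, 17799 none and 0 several. No table coordinates are printed except those of the promoters, because the array headers name another build. The normalization was tested on simulated dye-swapped data with planted ratios, where the dye effect varied only with signal. Dye effects of single genes, as seen at Pcdhga9, were not simulated. Tables were summarised in python 3.11.15 with pandas 2.3.3.

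With 1 replicate no test was possible, and the number of arrays limits the precision. A gene was called at 1.5-fold or 1.2-fold in one diet direction on each array. Members, classes and lists were chosen with earlier results of these data known. All members outside the clustered protocadherins could be named, with the 3 highest and 3 lowest of each cluster and the 2 highest and 2 lowest of each partner list; other names were chosen after their values were seen. Alternatives changed the normalization, background correction, brightness filter, probe rule, outlier filter or array. Protein sequences were planned and are not used here. No column of another sample stayed unused (0).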

Additional observations from a re-analysis of the deposited data

How the results depend on the processing

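The alternatives were 9 with both arrays and 2 with a single array. No member was 1.5-fold higher or lower on each array, and none 1.2-fold higher, in any alternative with both arrays. A single array takes away the demand that both agree, and gave 0 to 1 members 1.5-fold higher, 1 to 2 members 1.2-fold higher and 2 to 4 members 1.2-fold lower. It also gave 25 to 30 members above 0 and 24 to 29 below, medians over members of -0.026 to 0.019, and differences of that median from all genes of -0.0086 to 0.046. Class medians with a single array were -0.077 to -0.029 for type II cadherins, 0.0041 to 0.17 for delta protocadherins and 0.028 to 0.033 for beta protocadherins. Median centring in place of loess gave 2 members 1.2-fold lower, 7 above 0 and 24 below 0 on both arrays, a members' median of -0.049 that was 0.11 above all genes, and medians of -0.13 (type II), 0.13 (other cadherins) and -0.046 (beta). The beta median was 0.014 from the scanner's log ratios or the value table, and 0.018 with the mean over probes, against 0.0080. The cause of these shifts was not tested. The other 170 class and count values stayed within the spread or 1.5 times the count. Of the values of single genes with both arrays 422 stayed within the SD between arrays and 63 did not, and of partner and marker list medians 100 did and 26 did not. These counts are not independent checks. Results from both deposited forms of the log ratio are identical and were each counted. For a member with 1 probe, neither the brightness filters nor the mean over probes could alter its ratio. Many of the single-gene values that stayed within the SD were therefore bound to do so. No paired analysis was possible because the arrays were treated as 1 replicate and no test was run. A ratio of a probe near background is limited by the offset, and members with no probe named by accession cannot be judged.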
